A study of Mus musculus with 4 samples.

Results

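The genes that bring fatty acids into liver cells and carry them there were described in mice given GALP (galanin-like peptide). They were the 10 genes Cd36, Slc27a2, Slc27a4, Slc27a5, Fabp1, Fabp2, Fabp4, Fabp5, Lpl and Lipc, chosen by name among the 26582 gene names on the array, and all of their probes were taken. They had 17 probes among 41174. Male C57BL/6J mice bought at 8 weeks of age were made obese (DIO, diet-induced obesity) by a high-fat diet for 14 weeks and weighed at least 40 g. They then received 1 nmol of porcine GALP in 2 µL of saline with 5% α-cyclodextrin through the nose once a day for 11 days, or saline. Both groups stayed on the high-fat diet during this time. Liver RNA of 4 GALP mice with greater weight loss and of 4 GALP mice with less weight loss was pooled, and each pool was set against 1 pool of 8 saline mice on 2 arrays with the dyes Cy3 and Cy5 exchanged. All 4 arrays lay on 1 slide. Each pool is 1 sample, so the spread between mice is not in these data, and the control pool enters every ratio.

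Fatty acids reach hepatocytes from plasma, where albumin carries them, and from lipoproteins, whose triglycerides are cut by lipases at the vessel wall. At the cell surface Cd36 and the fatty acid transport proteins (the Slc27a family) take part in uptake, and the latter also join fatty acids to coenzyme A. Inside the cell, the small fatty acid binding proteins (the Fabp family) hold them in solution. In bulk liver RNA, fewer cells of a type and less RNA per cell cannot be told apart.

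A ratio is given throughout as log2 of GALP over control, from the processed signals of the Agilent software, and a pool's ratio is the mean of its 2 dye orientations. A probe is called when its fold is over 1.5 or under 0.75 and the software's p-value is under 0.01 in the same direction on each array. A channel has signal when the software marked the spot well above background, and a probe is measured when at least 1 channel has signal on every array. Of the 17 probes, 16 had spots free of outlier marks on all 4 arrays and 14 of these, for 8 genes, were measured. Where a gene had several probes, the one with the highest mean signal stands for it. Between 40.5% and 46.7% of spots had signal in a channel, and no spot was saturated. Over the 14453 probes with signal in all 8 channels, the ratios of the exchanged arrays correlated at r = 0.54 in the greater weight loss pool and r = 0.26 in the less weight loss pool, as a description across probes that share extracts.

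No probe of the 10 genes was called in both GALP pools, beside 0.0585% of 41037 probes called higher and 0.132% called lower. In the greater weight loss pool alone, 1 of the 16 probes was called higher, for Lpl, and 0 lower, beside 0.297% and 0.395% of all probes. In the less weight loss pool alone none was called in either direction, beside 0.234% higher and 0.366% lower. With limma on the pool ratios (n = 2 pools), 0 of the 16 probes had an adjusted p under 0.05, as did 0% of all probes, and the members' adjusted p ranged from 0.382 to 1. At an unadjusted p under 0.05 there were 2 of the 16 probes, 1 for Fabp4 and 1 for Slc27a2, beside 11.6% of all probes. The smallest adjusted p over all probes was 0.374, so no probe of any gene passed. A p that misses the threshold does not show that values were equal, and intervals are given below.

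**Figure D1:**
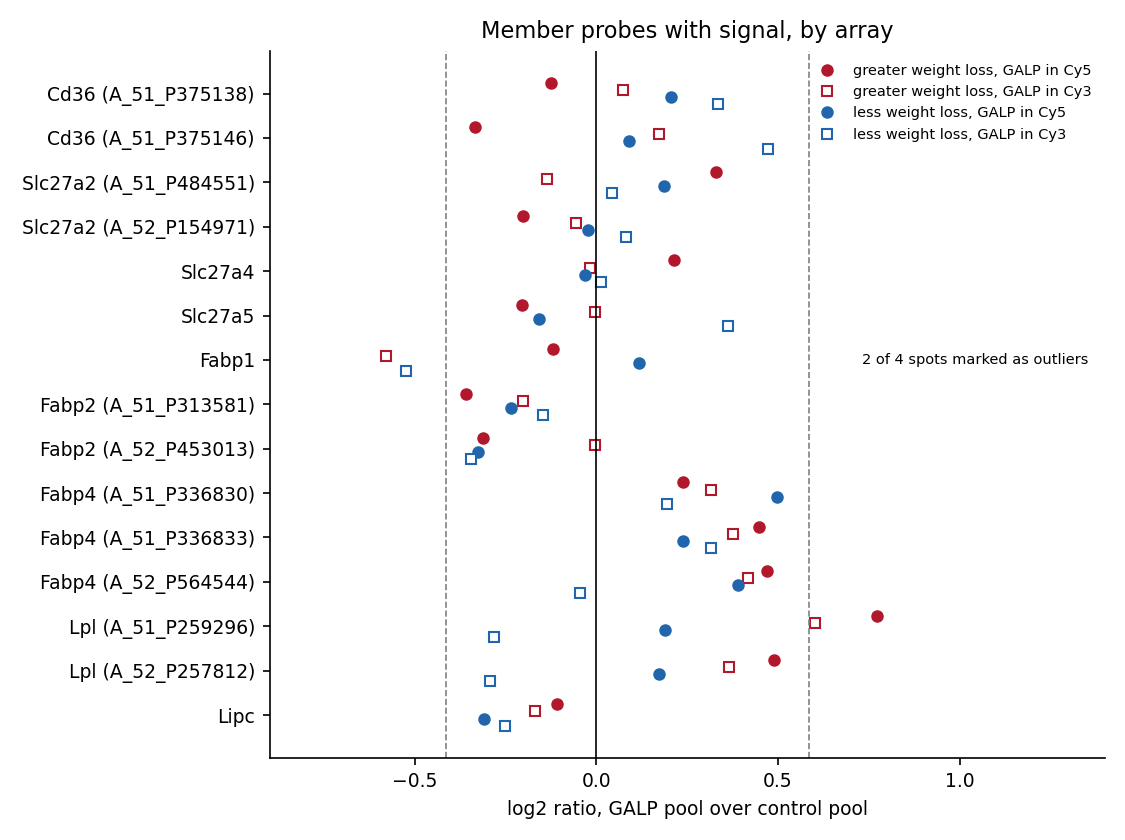
Log2 ratio of GALP over control (horizontal axis) of each member probe with signal, by array: red for the greater and blue for the less weight loss pool, filled circles for GALP in Cy5 and open squares for GALP in Cy3. The dashed lines mark folds of 0.75 and 1.5. Fabp4 values lie above 0 except for 1 array of 1 probe, both greater weight loss values of the brighter Lpl probe lie beyond 1.5-fold, and Fabp1 has 2 spots with outlier marks.

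Cd36, the surface receptor that takes up long-chain fatty acids, gave ratios of both signs. Its brighter probe (A_51_P375146, chr5:17288600-17288659 on mm9) read -0.33 and 0.17 in the greater weight loss pool with GALP in Cy5 and Cy3. It read 0.09 and 0.47 in the less weight loss pool. The dimmer probe (A_51_P375138) lies at chr5:17289110-17291542, a span wider than its 60 bases. It read -0.13 and 0.07 in the greater weight loss pool and 0.21 and 0.33 in the less weight loss pool. At both probes the pool with less weight loss was the higher, and the Cy3 array was the higher of each pair. The pool ratios of the brighter probe were -0.08 and 0.28, with a mean of 0.10 ± 0.26 (SD, n = 2 pools) and a limma 95% interval of -0.83 to 1.03 (adjusted p = 0.877). Its processed signal was 4412 to 6154 in the GALP channels and 3179 to 6528 in the control channels, so the groups overlapped.

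The probes of the transport proteins were set side by side at short runs of shared bases. The probes of Slc27a2 (FATP2), Slc27a4 (FATP4) and Slc27a5 (FATP5) are shown so that the bases of the paralogs' probes can be compared. Whether a probe also binds the transcript of another paralog was not tested. Capitals mark a run of bases that the Slc27a4 probe shares with each of the other two, the longest with Slc27a2 and the first of the longest with Slc27a5. In the Slc27a4 probe they mark the run shared with Slc27a2.
Slc27a2 (A_52_P154971, chr2:126413550-126413609, + strand, mm9): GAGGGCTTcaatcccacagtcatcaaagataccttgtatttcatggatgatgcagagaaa
Slc27a4 (A_52_P61854, chr2:29671115-29671174, + strand, mm9): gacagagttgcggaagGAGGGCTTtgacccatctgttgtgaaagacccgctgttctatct
Slc27a5 (A_51_P289742, chr7:13573924-13573983, - strand, mm9): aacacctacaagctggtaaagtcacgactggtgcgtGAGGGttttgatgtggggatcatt
Laid at these runs, the Slc27a2 and Slc27a4 probes were identical at 26 of 44 overlapping bases (59.1%), and the Slc27a4 and Slc27a5 probes at 18 of 40 (45%). Among all member probes, no run shared between probes of different genes was longer than 10 of 60 bases. Runs of 10 occurred between Fabp4 and Fabp2, between Slc27a5 and Fabp4, and between Slc27a4 and Slc27a2, the last at a probe not shown here. A short shared run alone thus does not show that places correspond.

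Slc27a2, which also activates very long-chain fatty acids, read -0.20 and -0.06 in the greater weight loss pool and -0.02 and 0.08 in the less weight loss pool at the probe shown. Its mean was -0.05 ± 0.11 (SD, n = 2 pools), with a 95% interval of -0.46 to 0.36. A further probe (A_51_P484551, chr2:126390415-126390474) read 0.33, -0.14, 0.19 and 0.04 on the same arrays. The probes of Slc27a2 thus differed in sign, with means of -0.05 and 0.11. This further probe is the one under 0.05 before adjustment, and its limma adjusted p was 0.386. Its pool ratios were 0.10 and 0.11, closer to each other than its arrays were.

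Slc27a4, found in gut and many other tissues, read 0.22, -0.02, -0.03 and 0.01 in the same order, with a mean of 0.04 ± 0.08 (SD, n = 2 pools) and an interval of -0.24 to 0.33. Its dimmer probe (A_51_P408609, chr2:29672404-29672464) had signal on 1 array alone. There, in the greater weight loss pool with GALP in Cy3, the processed signal was 168 for GALP and 59.7 for control (log2 ratio 1.49). Both channels were not well above background on the other 3 arrays, at 9.10 to 14.3, so no fold is given for the gene from it.

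Slc27a5, the liver form that also acts on bile acids, had processed signals of 31050 to 41971 in the GALP channels and 31133 to 43010 in the control channels. Its ratios were -0.20, 0.00, -0.16 and 0.36 in the same order. The pool ratios were -0.10 and 0.10, the mean was 0.00 ± 0.15 (SD, n = 2 pools) and the interval ran from -0.53 to 0.53. None of the 3 transport genes had the same sign on all 4 arrays at the probe that stands for it.

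**Figure D2:**
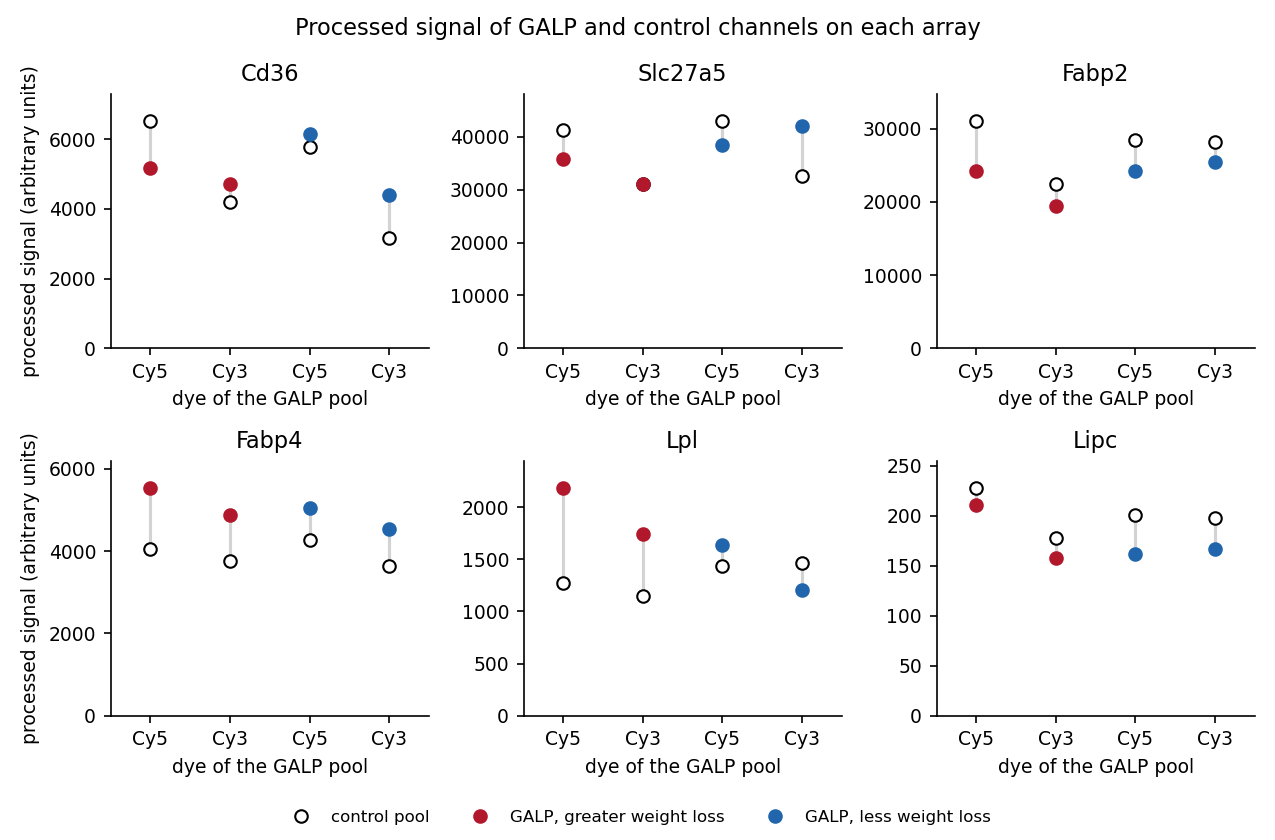
Processed signal (vertical axis, arbitrary units, from 0) of 6 members in the GALP channel (filled) and the control channel (open) of each array, with a line joining the channels of an array. For Fabp4 the 4 GALP points, 4536 to 5526, lie above the 4 control points, 3644 to 4280. Points of a pool repeat the same extract, and every control point comes from the control pool, so they are not separate samples. The share of all measured probes whose channels separate in this way is not given. For Lpl GALP lies above control on both arrays of the greater weight loss pool and on either side of it in the other.

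Fabp1, the abundant binding protein of hepatocytes, could not be followed in a dye-balanced way. Its single probe (A_51_P487818, chr6:71154906-71154965) carried an outlier mark on 2 of the 4 arrays, 1 in each pool. The unmarked spots read -0.12 in the greater weight loss pool with GALP in Cy5 and -0.52 in the less weight loss pool with GALP in Cy3. The marked spots read -0.58 in the greater and 0.12 in the less weight loss pool. The values thus fell by dye orientation rather than by pool, with GALP in Cy3 at -0.58 and -0.52 and GALP in Cy5 at -0.12 and 0.12. With the marks ignored the pool ratios were -0.35 and -0.20.

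Fabp2, named for the intestine but present in liver, was lower in GALP on all 4 arrays at its brighter probe. This probe (A_51_P313581, chr3:122602276-122602335) read -0.36 and -0.20 in the greater weight loss pool and -0.23 and -0.15 in the less weight loss pool. The other probe is shown as a further place of the same transcript, read on the same arrays from the same extracts.
Fabp2 (A_52_P453013, chr3:122599692-122599751, + strand, mm9): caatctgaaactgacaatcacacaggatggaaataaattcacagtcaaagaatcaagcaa
It read -0.31, 0.00, -0.33 and -0.35, so 7 of the 8 readings of the gene lay between -0.36 and -0.15 and the other at 0.00. The mean of the brighter probe was -0.24 ± 0.06 (SD, n = 2 pools), a fold of 0.849, with a limma 95% interval of -0.47 to 0.003 and an adjusted p of 0.433. Among all 15724 measured probes, 11.3% had a mean at least as low. The processed signals overlapped between groups, at 19461 to 25432 for GALP and 22405 to 31079 for control.

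Markers of enterocytes, which also hold Fabp2, were at or near background. Of Vil1, Alpi, Sis and Lct, Sis (sucrase-isomaltase) alone was measured, with signal in 4 control channels and 1 GALP channel. Alpi (intestinal alkaline phosphatase) had signal in 3 control channels and no GALP channel and was called lower in the greater weight loss pool, the one call of the list. Vil1 and Lct had no signal in any channel. The summed processed signal of the 4 was 26.1 to 121 in the GALP channels and 123 to 204 in the control channels, and their part in the Fabp2 values was not tested.

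Fabp4, the binding protein of adipocytes, macrophages and capillary endothelium, had the highest mean ratio of the 8 measured members. Its 3 probes lie at separate places, and the dimmer ones are shown because their readings, from the same extracts, can be set beside the brightest.
Fabp4 (A_52_P564544, chr3:10208442-10208501, - strand, mm9): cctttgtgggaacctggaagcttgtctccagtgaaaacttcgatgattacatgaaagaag
Fabp4 (A_51_P336830, chr3:10204533-10205262, - strand, mm9): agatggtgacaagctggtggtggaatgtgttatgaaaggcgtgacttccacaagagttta
The brightest probe (A_51_P336833, chr3:10204452-10204511) read 0.45 and 0.38 in the greater weight loss pool and 0.24 and 0.32 in the less weight loss pool. The probe at chr3:10204533-10205262 read 0.24, 0.32, 0.50 and 0.19 on the same arrays. The probe at chr3:10208442-10208501 read 0.47, 0.42, 0.39 and -0.04. GALP was thus higher in 11 of 12 readings, the exception being the less weight loss pool with GALP in Cy3.

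The brightest Fabp4 probe had a mean of 0.35 ± 0.10 (SD, n = 2 pools), a fold of 1.27, and 3.95% of measured probes had a mean at least as high. The other probes had means of 0.31 ± 0.05 and 0.31 ± 0.19. These folds stayed under 1.5 and the probes were not called. The limma interval of the brightest probe ran from -0.005 to 0.70 (adjusted p = 0.433). The probe at chr3:10204533-10205262 was the one under 0.05 before adjustment, with a limma adjusted p of 0.382 and an interval of 0.13 to 0.49. Its pool ratios, 0.28 and 0.35, were closer to each other than its arrays, which ranged from 0.19 to 0.50. Of the measured probes 11.4% were higher and 15.7% lower on all 4 arrays, against 2 and 3 of the 14 measured member probes.

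Fabp4 is shared by cell types whose markers moved differently. Of 8 macrophage markers, all measured, Marco, a scavenger receptor, was called higher in both pools (1.05 and 0.69), and Cd68, a lysosomal protein, in the greater weight loss pool (0.67, and 0.43 in the other). The others were not called: Adgre1 (F4/80) read 0.42 and 0.44, Csf1r 0.21 and 0.34, Cd5l 0.13 and 0.16, and Mrc1 -0.02 and 0.14. Vsig4, a resident Kupffer cell receptor, read -0.25 and 0.12, and Clec4f, a Kupffer cell lectin, -0.12 and 0.11. The median of the 8 was 0.17 in the greater and 0.25 in the less weight loss pool. The summed signal of the 8 was 26218 to 32216 in the GALP channels and 23336 to 26149 in the control channels. Of 5 adipocyte markers, Lep, Plin1 and Retn were not measured. Adipoq (adiponectin) read 0.38 and -0.26, and Cfd (adipsin) read -0.89 and -0.74 and was called lower in the greater weight loss pool. Their summed signal was 229 to 344 for GALP and 360 to 408 for control. The 6 endothelial markers, all measured, had a median of -0.02 in the greater and 0.00 in the less weight loss pool, with none called, and a summed signal of 30328 to 36740 for GALP and 30876 to 41641 for control. The part of these cell types in the Fabp4 values was not tested.

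Fabp5, the epidermal form (A_51_P387764, chr3:10016373-10016432), had no signal in any of the 8 channels, at processed signals of 6.30 to 12.3, and no fold is given. Its gene neighbours Fabp4, and the probes of Fabp4, Fabp5, Fabp9 and Pmp2 lie within 192 kb of 1 chromosome. Fabp9 and Pmp2 had no signal either, so Fabp4 was the only gene of these 4 that was read.

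Lpl, lipoprotein lipase, was the one member called in a single pool. Its brighter probe (A_51_P259296, chr8:71430267-71430326) read 0.77 and 0.60 in the greater weight loss pool. It read 0.19 and -0.28 in the less weight loss pool. The GALP signals in the greater weight loss pool were 2180 and 1743, above their control channels at 1275 and 1147, and the software's p-values were 0.000346 and 0.00435. In the less weight loss pool the GALP signals of 1639 and 1205 stood on either side of the control signals of 1439 and 1465. A dimmer probe is shown as a further place of the same transcript.
Lpl (A_52_P257812, chr8:71425050-71425109, + strand, mm9): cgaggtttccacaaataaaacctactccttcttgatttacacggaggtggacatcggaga
It read 0.49 and 0.37 in the greater and 0.17 and -0.29 in the less weight loss pool, and was not called.

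The fold of Lpl at the brighter probe was 1.61 in the greater and 0.968 in the less weight loss pool, and 0.903% of measured probes were as high in the greater weight loss pool. The mean was 0.32 ± 0.52 (SD, n = 2 pools), with an interval of -1.56 to 2.20 (adjusted p = 0.727). With 1 sample a group, the difference between the pools has no test. The lowest greater weight loss reading, 0.60, lay above the highest less weight loss reading, 0.19, at the brighter probe, and 0.37 lay above 0.17 at the other. Both arrays and both probes read the same extracts, so these are not separate samples. The share of all measured probes that separate the pools in this way is not given.

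Transcripts of skeletal muscle, where Lpl is abundant, differed between the same pools. Acta1 (skeletal actin) read 0.33 in the greater and -2.65 in the less weight loss pool. Ckm (muscle creatine kinase) read 0.62 and -1.62, with signal on 1 of the 2 GALP channels of the latter. Myh4 (fast myosin) read 0.81 in the greater weight loss pool, and in the other, where its GALP channels had no signal, it was at least 2.47-fold lower, measured against the dimmest signal above background. The summed signal of the 4 muscle markers was 901 to 1233 in the greater weight loss pool against 750 to 795 in control on those arrays. In the less weight loss pool it was 214 to 231 against 815 to 897. Lpl thus shared the direction of these markers in the greater weight loss pool, and in the less weight loss pool it stayed at -0.05. Of the adipocyte markers with signal, which are given above, Adipoq was the higher in the greater weight loss pool, whereas Cfd was lower than control in both pools. The 8 macrophage markers given above had a median of 0.17 in the greater and 0.25 in the less weight loss pool. The part of muscle, of adipocytes and of macrophages in the Lpl values was not tested.

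**Figure D3:**
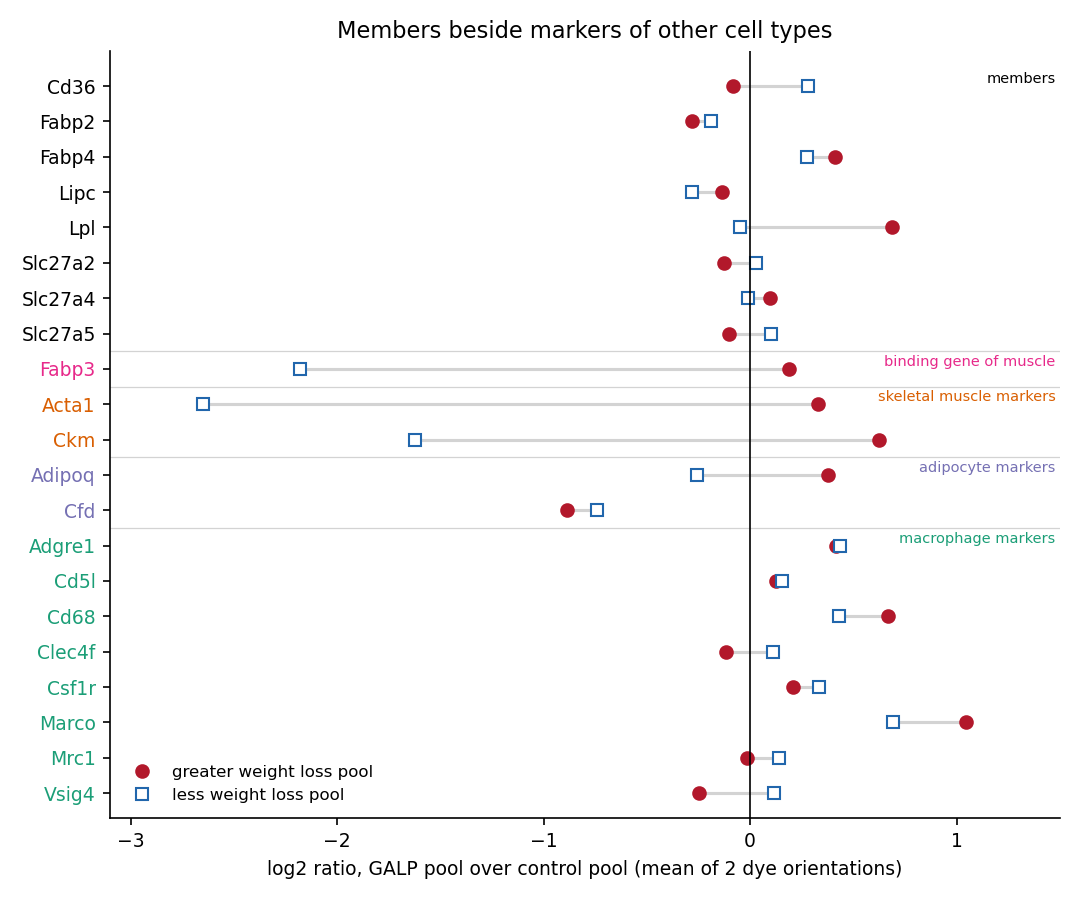
Log2 ratio of GALP over control (horizontal axis, mean of 2 dye orientations) in the greater (red circles) and the less (open blue squares) weight loss pool, for members, Fabp3 and markers of other cell types with signal, which share the control pool. The muscle markers drawn (Myh4, without GALP signal in the less weight loss pool, is left out) and Fabp3 lie between -2.65 and -1.62 in the less weight loss pool, the members lie between -0.28 and 0.69 in both, and Marco lies highest among the macrophage markers.

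Lipc, the hepatic lipase that hepatocytes secrete, was lower in GALP on all 4 arrays. Its single probe (A_51_P263993) lies at chr9:70660699-70664375, a span wider than its 60 bases. It read -0.11 and -0.17 in the greater weight loss pool and -0.31 and -0.25 in the less weight loss pool. The less weight loss pool was the lower, but the 2 readings of a pool repeat the same extract and do not show the spread between samples. The mean was -0.21 ± 0.10 (SD, n = 2 pools), a fold of 0.865, with an interval of -0.58 to 0.16 (adjusted p = 0.547), and 13.8% of measured probes had a mean at least as low. Processed signals were 158 to 211 for GALP and 177 to 228 for control. After another background correction and normalization (normexp and loess) the mean was -0.07.

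Taken as a list, the 8 measured members had a median ratio of -0.09 in the greater and 0.01 in the less weight loss pool, beside -0.01 and -0.02 over all 11406 measured genes. The median of the mean ratios was 0.02, beside -0.01. The median size of the mean ratio regardless of sign was 0.15 for the members and 0.10 for all measured genes. Of the measured probes, 85.5% had a mean between the lowest and the highest of the members, -0.25 and 0.35.

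**Figure D4:**
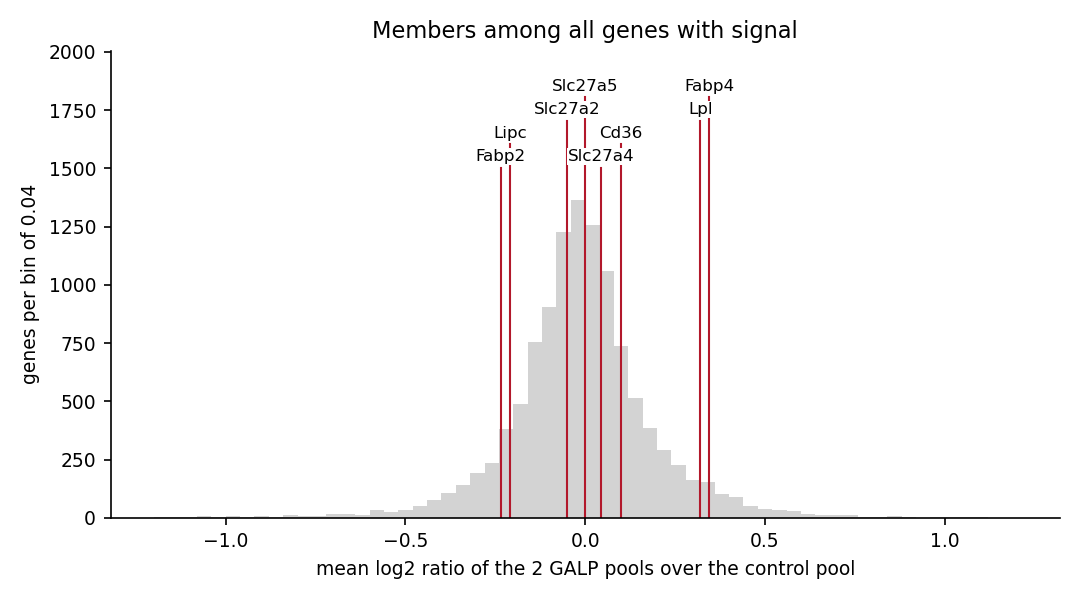
Number of measured genes (vertical axis) by mean log2 ratio of the 2 GALP pools over control (horizontal axis, bins of 0.04), with red lines at the 8 measured members. Fabp4 and Lpl stand on the right, at 0.35 and 0.32, Fabp2 and Lipc on the left, at -0.24 and -0.21, and 66 genes lie beyond 1.2 on either side and are not drawn.

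Of 42 further genes of fatty acid transport, activation, binding, lipoprotein lipolysis and the receptors that control the members, 34 were measured and none was called in both pools. Their median of mean ratios was 0.01. In the greater weight loss pool 0 were called higher and 1 lower, beside 0.297% and 0.395% of all probes. In the less weight loss pool 1 was called higher and 1 lower, beside 0.234% and 0.366%. Both single-pool calls of Pnlip, the lipase of pancreatic acinar cells, are among these, at -3.89 and 0.84. The third is Fabp3, the binding protein of heart and skeletal muscle, at 0.19 in the greater and -2.18 in the less weight loss pool, where the muscle markers were also lower. The part of muscle and pancreas in these values was not tested.

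The highest means among these genes were those of Angptl4, a secreted inhibitor of Lpl, Lrp1, a receptor for lipoprotein remnants, and Acsl4, which activates arachidonic acid. Angptl4 read 0.43, 0.24, 0.57 and 0.17 on the 4 arrays, with a mean of 0.35 ± 0.03 (SD, n = 2 pools). Lrp1 had a mean of 0.31 ± 0.08 and Acsl4 of 0.21 ± 0.14. The lowest, after Pnlip and Fabp3, was Acsl3, which activates fatty acids at lipid droplets. It read -0.60, -0.32, -0.52 and -0.51, with a mean of -0.49 ± 0.04 (SD, n = 2 pools). Slc27a3, Slc27a6, Fabp6, Fabp9, Pmp2, Acsl6 and Lipg were not measured, and Acsl5 had spots with outlier marks.

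The receptor Ppara, which drives fatty acid uptake and oxidation genes in liver, read 0.01 and 0.12, and Pparg, which drives Cd36 and Fabp4 in fat, -0.19 and 0.03. Ppargc1a, a coactivator of both, read -0.27 and -0.29. The motif to which PPAR with its partner RXR binds is a repeat, searched as AGGNCANAGGNCA on both strands of 250 bases before to 50 bases after each gene's start in the RefSeq table. Promoters of 6 members were in the table, and 1 held it, that of Fabp1, beside 0.381% of all 32851 promoters. It is shown, in capitals and on the reverse strand, because Fabp1 is a known target of Ppara in liver.
Fabp1 (chr6:71199792-71199844, + strand, GRCm38.p6): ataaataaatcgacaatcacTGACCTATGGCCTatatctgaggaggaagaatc
The match lies 67 to 55 bases before the start, and it is a description of letters only. The labelled tissue was checked on hepatocyte markers: Alb, Apoa1, Ttr, Hnf4a and Tat had signal on every array, and Cyp2e1 had no usable value. The median ratio of those with signal was 0.00 in the greater and 0.02 in the less weight loss pool. Alb read -0.01 and 0.11, Apoa1 0.11 and -0.22, Ttr 0.00 and 0.02, and Hnf4a 0.23 and 0.09. Tat was lower in GALP on all 4 arrays, with pool ratios of -0.19 and -0.56, and was not called.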

How the data were processed

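Liver RNA pools were compared on 4 two-colour Agilent arrays of 1 slide. Agilent's Feature Extraction software (12.0.3.1 per the file headers, 11.0.1.1 in the submitters' processing notes) removed background and applied LOWESS dye normalization, which gave each channel's processed intensity. For each array, log10 ratios were deposited as Cy5 over Cy3. The deposited p-value rests on the error model of that software for a single array. The whole-series file that the authors deposited, of log10 ratios of GALP over control, served as an alternative.

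For the log2 ratios used here, each deposited log10 ratio was rescaled and given the sign of GALP over control. Spots marked as outliers were dropped. A pool's arrays hold the same extracts and were averaged, leaving 2 pools as replicates. The number of arrays, and for the tests of pools, limits the precision. The labels name a weight loss group for control channels as well, but the methods describe 1 control pool of 8 mice. It counted as 1 sample, so its own spread is missing from the tests. The threshold of the methods was required on all 4 arrays, since they do not state on how many it must hold. limma 3.58.1 in R 4.3.3 tested pool ratios against 0 (lmFit, eBayes, 1 residual degree of freedom, Benjamini-Hochberg over 41037 probes). The procedures were tested on simulated data. Python 3.11.15 with numpy 2.4.6, pandas 2.3.3 and matplotlib 3.10.9 was used.

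All 10 members are named with every probe. Of the further pathway genes, those called and the 3 highest and 3 lowest means were named, and those called and up to 2 of each per marker list where a result turns on them. Other genes named beside them were chosen after their values were seen. Members and lists were chosen with earlier results of these data known. A list of 3 stellate cell markers (2 measured, none called, median mean ratio 0.13) was also checked. Alternatives were normexp with an offset of 50 and loess, centring, other p and fold rules, no outlier filter, each dye orientation, all probes averaged, and each pool left out. Probe positions are on mm9 as the files give them, and exons or UTRs are not annotated there. The metabolome was not analysed here.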

Additional observations from a re-analysis of the deposited data

Results flagged for a closer look

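No member had both arrays of a pool on 1 side of 0 and both arrays of the other pool on the opposite side. Among the further genes named that had signal in both groups, Acta1, Ckm, Fabp3, Pnlip, Adipoq, Apoa1 and Pparg did. None of these differences between the pools was tested. The share of all measured probes with such a split is not given, so its absence among the members is not shown to be particular to them. The ratio of the greater minus that of the less weight loss pool was 2.98 for Acta1, 2.25 for Ckm and 2.37 for Fabp3, all skeletal muscle transcripts. Ckm had GALP signal on 1 of the 2 arrays of the less weight loss pool, so its difference rests in part on a reading near background. It was -4.74 for Pnlip of the pancreas. For Adipoq, an adipocyte hormone, it was 0.63 (0.38 and -0.26), and for Apoa1, a hepatocyte apolipoprotein, 0.32 (0.11 and -0.22). Pparg read -0.21 and -0.18 on the arrays of the greater and 0.05 and 0.01 on those of the less weight loss pool.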

How the results depend on the processing

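No member probe was called higher or lower in both pools under a p rule on 1 array of each pair, no p rule, a symmetric fold of 1.5, normexp and loess, or no outlier filter. The share of all probes called is given for the main rule alone, 0.0585% higher and 0.132% lower, so these counts are not a trait of the members. With each pool left out in turn, 0 to 1 probe was called higher, the 1 being Lpl without the less weight loss pool. limma gave 0 adjusted calls with signal probes only, an intensity trend, or normexp and loess, with smallest adjusted p of 0.144, 0.529 and 0.108. The median ratio of the members was -0.12 with GALP in Cy5 alone and 0.09 with GALP in Cy3 alone, and -0.093 to 0.0097 with each pool left out, so its sign rests on the setting; the cause was not tested. Fabp4 (0.28 to 0.41), Fabp2 (-0.30 to -0.17) and Lipc (-0.28 to -0.07) kept their sign under every alternative, and Lpl (-0.05 to 0.69) under all but the greater weight loss pool left out. Cd36, Slc27a2, Slc27a4 and Slc27a5 changed sign under 2 to 4 of 9 alternatives. The GALP pools hold different mice and the labels carry no replicate numbers that tie them, so no paired analysis across pools was made. Each ratio was already taken within an array. Signal near background left Fabp5 and the dimmer Slc27a4 probe without a fold.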
